A study of Bos taurus with 18 samples.

Results

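The window examined here is a 2000000-bp piece of Bos taurus chromosome (BTA) 4, chr4:94651869-96651869 of UMD 3.1, around the lead variant of a quantitative trait locus (QTL) for gestation length, which lies at its centre (95651869). It was cut into tiles of 2000 bp, and the stretch chr4:95500419-95591357, the long non-coding RNA gene LOC107131356 with its flanks, was left out. Of 953 tiles with a listed CpG position, 949 were kept because at least 9 of 18 bulls list a position in them, out of 1186985 such tiles in all. A further 4 tiles are listed in fewer than 9 bulls, and 348 of the 949 are listed in all 18. The rule used positions and listing only, so no methylation value chose the members.

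Sperm DNA of 18 Holstein bulls was measured by whole-genome bisulfite sequencing, with 1 library per bull and no treatment. For gestation length (GL), H03, H09, L03 and L05 carry the label high and H02, H05, L01 and L07 the label low. High and low refer to the predicted transmitting ability, an estimate of what a bull's genes add in its progeny, and not to a gestation of the bull itself. For sire calving ease (SCE) the high bulls are H03, H07 and L02 and the low bulls H01, H06 and L09. For body depth (BDE) the high group is H02, L03, L08 and the low group H05, H09, L02. For cow conception rate (CCR) the high group is H08, H09, L06 and the low group H06, L08, L09. For sire conception rate (SCR) the high group is H01, H02, H03 and the low group L01, L02, L03. The SCR groups come from the sample labels only, and the paper does not say what high and low measure for SCR. The comparisons share bulls, so they are not independent of each other, and H04 and L04 belong to no group. The bulls were matched for age, and the ages themselves are not given in the sources used here.

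Bisulfite turns unmethylated cytosines into uracils and leaves methylated ones, so the share of cytosines still read at a CpG, in percent, gives its methylation. Mature sperm DNA of mammals is methylated over most of its length, and the main exceptions are CpG-rich promoters and CpG islands, which stay free of the mark. In the order that RefSeq gives for the newer assembly ARS-UCD2.0, the coding genes before LOC107131356 are MEST, COPG2, TSGA13 and KLF14, and those after it are MKLN1, PODXL and PLXNA4, with MIR29A and MIR29B-1 in between. MEST is an imprinted gene expressed from the paternal allele, KLF14 a transcription factor, MKLN1 a subunit of a ubiquitin ligase complex, PODXL a sialomucin of podocytes, and PLXNA4 a receptor for semaphorins. That assembly is not the one of the methylation values, so no tile is assigned to a gene here, and the unmethylated paternal MEST promoter could not be used as a check of the sperm label.

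The window was highly methylated. The median over bulls was 94.1% for the median tile (quartiles 89.4% and 95.9%), beside 93.4% over the 56654 tiles of BTA4 and 93.3% over all tiles. High tiles, at 80% or more, numbered 828 (87.2%), intermediate tiles 94 (9.91%) and low tiles, under 20%, 27 (2.85%). On BTA4 the share of low tiles was 1.90% and of intermediate tiles 13.2%, and over all tiles 2.38% and 14.7%. Among the 8 other windows of the same size around GL lead variants, the low share ran from 1.44% to 14.4% and the intermediate share from 5.77% to 38.4%. The low and intermediate shares of the BTA4 window therefore both lay inside the range of the other QTL windows. These shares are descriptions with no test.

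The tiles were not spread evenly. From 1000 to 500 kb before the centre the median tile lay at 95.5% in both 250-kb pieces, with 7 and 5 intermediate tiles. From 500 to 750 kb after the centre it was 92.5%, with 27 intermediate tiles of 125 (21.6%). In the last piece, 750 to 1000 kb after the centre, it was 88.2%, with 27 of 124 (21.8%). By contrast, the 250 kb right after the centre held 10 of the 27 low tiles and 2 intermediate ones. Of these 10 low tiles 8 form a single run, and the 250 kb before the centre held 2 low tiles of 78. Hence the intermediate tiles were most frequent at the distal end.

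**Figure D1:**
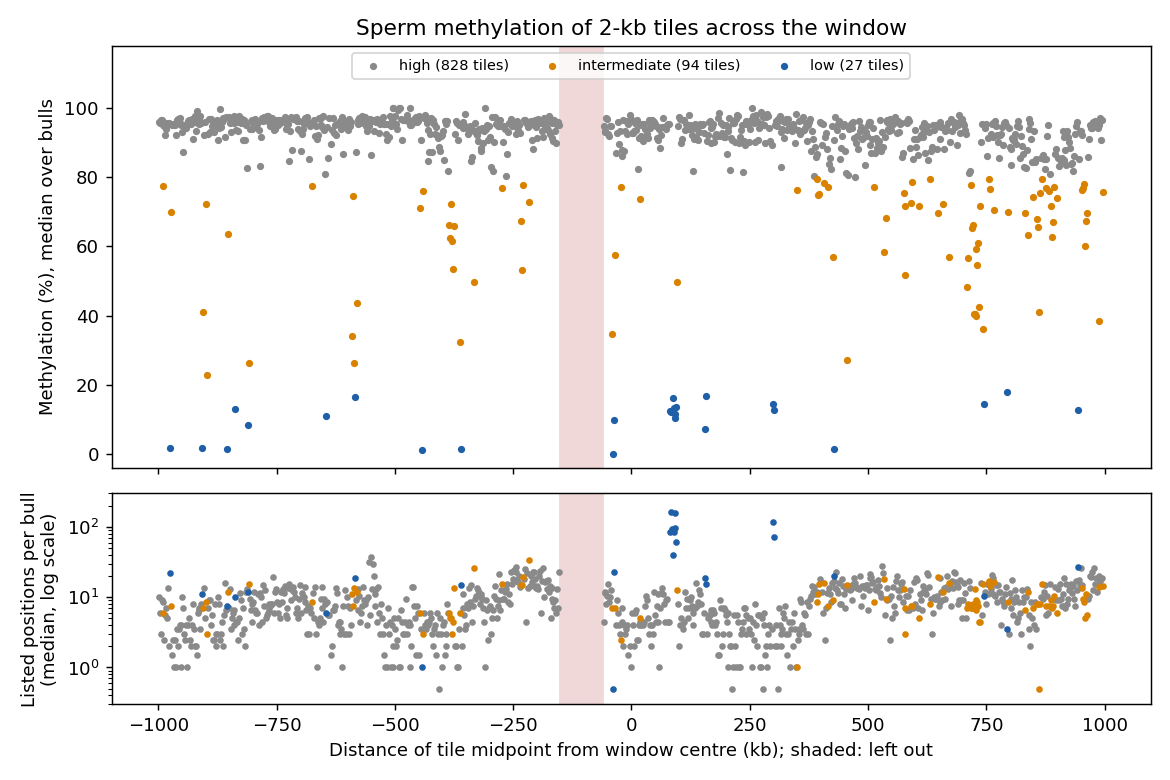
Median methylation over bulls in percent (upper panel) and median number of listed positions per bull (lower panel, log scale) of the 949 tiles, against the distance in kb of the tile midpoint from the window centre; the shaded stretch was left out. Of the 27 low tiles, 10 lie within 250 kb after the centre, and the intermediate tiles are most frequent from 500 kb onwards.

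The bulls differed more in how much of the window they list than in its level. The listed positions in the window ran from 2750 in H01 over a median of 9468 to 19804 in H08, and the tiles with a value from 638 in H01 over a median of 899.5 to 949 in H05. The median tile was lowest in L06 (91.4%), at 93.6% in the median bull and highest in L03 (94.9%), with an SD of 0.832 points over 18 bulls. L06 was also the lowest bull over all tiles of the series (90.3%) and L03 the highest (94.4%). The gap was widest in the intermediate tiles, where the median tile of a bull lay at 50.6% in L06, at 69.6% in the median bull and at 74.2% in H08. In high tiles the same values were 92.7% (L06), 94.5% and 95.5% (L03). L06 is a high bull of the CCR comparison and enters no other. Read coverage per position is listed for 6 bulls, H01, H02, H03, L01, L02 and L03, and is unknown for the other 12.

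The largest low feature was a run of 8 neighbouring tiles, chr4:95732001-95748000, with its midpoint 88.1 kb after the centre. Over its 16 kb the methylation was 10.03% in the lowest bull (L06), 12.12% in the median bull and 14.96% in the highest (H06), with an SD of 1.39 points over 18 bulls. No bull was near the level of the tile before the run (95.3%), and the tile after it lay at 49.7%. The 8 tile medians ran from 10.4% at chr4:95742001-95744000 to 16.1% at chr4:95738001-95740000. The run was also the part of the window richest in CpG positions, with 1304 positions listed in any bull and 798 in the median bull. Of the 809 positions listed in at least 9 bulls, 31.5% had a median under 5%, 49.6% lay from 5% to under 20%, 18.4% from 20% to 50% and 0.494% above 50%. The median position lay at 7.55%, and 82 of the 809 (10.1%) had a median of exactly 0.

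A second stretch of this kind, chr4:95950001-95954000, lay 300.1 kb after the centre. Its 4 kb were at 10.95% in the lowest bull (H08), 13.63% in the median bull and 17.3% in the highest (H06), with 271 positions listed in any bull. The same bull, H06, was highest in both stretches. The tiles on either side lay at 89.5% and 95%. With at least 40 listed positions in the median bull, 9 tiles of the window (0.948%) were dense, beside 0.455% on BTA4 and 0.395% of all tiles. All 9 were in the 2 stretches and all 9 were low, from 10.4% to 14.4%. Of the 4694 dense tiles of the series, 3422 were low, with a median of 12.4%, so a level near 12% is common among dense low tiles in these bulls.

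The spacing of the CpG positions links both stretches. When the positions of chr4:95950001-95954000 were moved by 216705 bp, 167 of 271 (61.6%) fell exactly on a listed position of the 16-kb run. The next best shift, more than 5 bp away, gave 40.2%, and the median over 19999 shifts was 6.64%. At the 94 shared places with at least 9 bulls on both sides, the medians were 9.01% in the long run and 8.78% in the short stretch. The median absolute difference was 1.82 points, and Pearson's r across these places was 0.86, a description over positions that share libraries. Inside the 16-kb run the positions recur too, since 16.9% fell on another listed position after a shift of 1843 bp and 14.3% after 1395 bp, beside a median of 5.37% over shifts.

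Coverage also set the dense tiles apart. In the 6 bulls that list it, the mean was between 30.6 and 36.2 reads per position in the dense tiles, between 11.7 and 12.5 in the other members and between 11.6 and 13.6 in the low tiles that are not dense. Weighted by reads, the 16-kb run stood at 12.3% in these bulls. Up to 2 positions per bull in the run reached 100 reads, the highest coverage listed. Whether reads of several copies were placed together was not tested, since no genome sequence was used here.

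The other low tiles were more varied in level. Among the 18 that are not dense, 7 had a median under 5%, and none of the 9 dense tiles did. The rest of the 18 (61.1%) lay from 5% to under 20%, as all 9 dense tiles did. The tile chr4:95738001-95740000 of the 16-kb run is among these 18. The lowest tiles are given first. The tile chr4:96078001-96080000 was at 0% in the lowest bull, 1.24% in the median bull and 2.84% in the highest (H07), with all 18 bulls listing it. In chr4:95290001-95292000 the same values were 0%, 1.51% and 4% (H01), again in 18 bulls. In chr4:94744001-94746000 they were 0%, 1.52% and 4.15% (L05) in 14 bulls. These are levels at which nearly every read was unmethylated, in every bull that lists the tile. The tile chr4:94676001-94678000 had a median of 1.74%, and 15% in its highest bull, L03. The tile chr4:95208001-95210000 had a median of 1.11% over 13 bulls, with a median of 3 positions per bull and 10% in H07. The tile chr4:94796001-94798000 had a median of 1.44% over 15 bulls, but 100% in H06 and 33.7% in L04, and its SD of 26.0 points was the largest of the 17 low runs.

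The remaining low runs had higher medians. The run chr4:95612001-95616000, with its midpoint at -37.9 kb from the centre, was at 3.06% in L05, 8.60% in the median bull and 34.9% in L03. L05 lists 66 positions there and L03 lists 4. The run chr4:95806001-95810000 was at 0.75% in L09, 11.4% in the median bull and 30.6% in H06. The tile chr4:94840001-94842000 had a median of 8.28% and a highest value of 18.2% (H03), and chr4:95006001-95008000 a median of 10.8% and a highest value of 81.8% (H09). H03 and H09 list 1 position each in these tiles, as H06 does in chr4:94796001-94798000. The 5 other low runs, single tiles, had medians from 12.6% to 17.96% and SDs from 5.80 to 23.7 points. The widest of them, chr4:96396001-96398000, was at 1.97% in L05 and 92.3% in L03. In the GL comparison the groups overlapped in each of the 12 longest or lowest runs, where 3.3% of all tested tiles had groups that did not overlap. Of the runs that every bull of a comparison lists, the groups did not overlap in 0 of 8 for SCE and BDE, 1 of 9 for CCR and 3 of 8 for SCR, beside 9.26%, 10.1%, 9.94% and 9.13% of all tested tiles. The SCR runs were chr4:95950001-95954000 (12.2% ± 0.989 in high and 14.4% ± 0.975 in low bulls, SD, n = 3 each), chr4:96078001-96080000 (0.253% ± 0.437 and 1.60% ± 0.238) and chr4:95290001-95292000 (2.57% ± 1.29 and 0.653% ± 0.187). The CCR run was chr4:94676001-94678000 (1.37% ± 0.638 and 2.92% ± 1.16). With some bulls not listing the tile, SCR in chr4:95208001-95210000 and SCE in chr4:94796001-94798000 also had no overlap, from 2 bulls a group. For the 16-kb run the high-GL bulls H03, H09, L03 and L05 were at 10.2%, 13.6%, 13.6% and 10.3%. The low-GL bulls H02, H05, L01 and L07 were at 12.2%, 11.03%, 13.4% and 10.3%, so that the group means differed by 0.241 points (11.9% ± 1.91 and 11.7% ± 1.36, SD, n = 4 each).

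**Figure D2:**
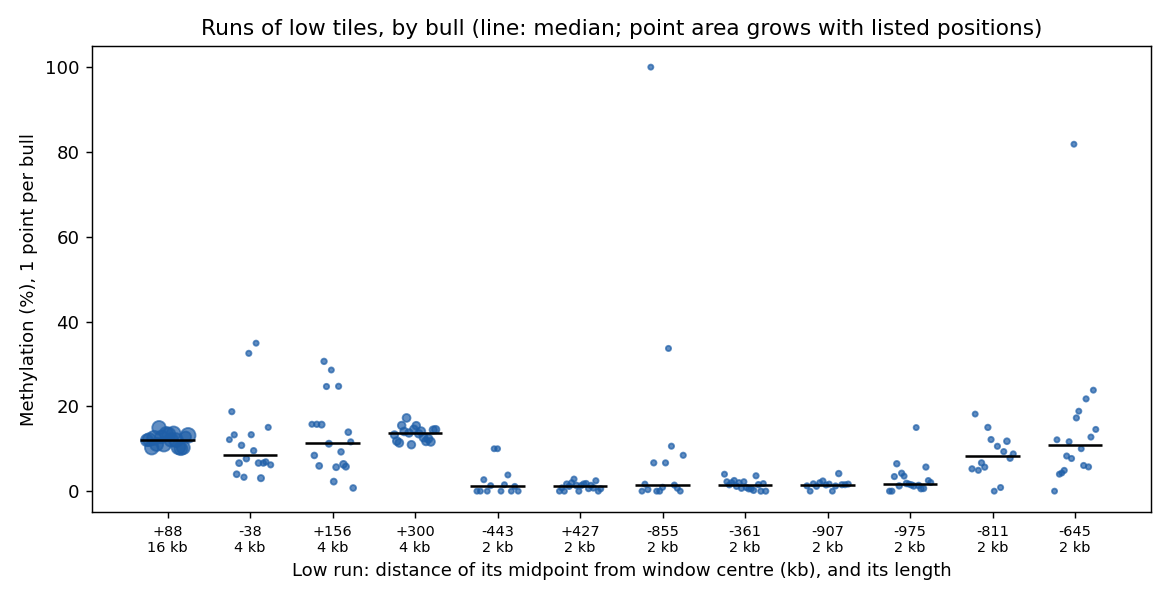
Methylation in percent of the 12 longest or lowest runs of low tiles, with 1 point per bull, a line at the median over bulls and a point area that grows with the number of listed positions. The 16-kb run and the 4-kb stretch at 300 kb are tightly grouped near 12.1% and 13.6%, whereas bulls with 1 position reach 100% and 81.8% in the tiles at -855 and -645 kb.

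Intermediate tiles formed 56 runs, of which 43 were single tiles. The longest had 11 tiles, chr4:96368001-96390000, with its midpoint 727.1 kb after the centre. Its 22 kb were at 36.0% in the lowest bull (L09), 54.1% in the median bull and 70.9% in the highest (H08), with an SD of 8.95 points. The next were chr4:95266001-95278000, at 46.3% in L06, 63.8% in the median bull and 79.8% in L02, and chr4:96604001-96616000, at 44.4% in L06, 72.8% and 83.0% in H06. L06 was the lowest bull in 4 of the 5 longest runs by these means, with L09 lowest in the longest. Coverage in them did not stand out, with a mean of 11.9 reads per position in the longest.

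The spread between bulls followed these classes. It was taken as the SD over bulls with at least 3 positions, in the 864 tiles where at least 9 bulls reach that. The median SD was 3.95 points in the window, beside 4.74 on BTA4 and 4.59 over all tiles, and 99 tiles (11.5%) had an SD over 10 points, beside 16.05% and 15.8%. Intermediate tiles had a median SD of 12.1 points, high tiles 3.53 and low tiles 2.19. The same values were 11.9, 4.17 and 3.78 on BTA4 and 11.9, 3.997 and 4.62 over all tiles. Low tiles thus had the smallest spread in the window and on BTA4, but not over all tiles. A different SD, over every bull that lists the tile and without the minimum of 3 positions, was taken in all 27 low tiles. Its median was 1.98 points in the 9 dense tiles and 7.31 in the 18 others. Bulls with few positions enter this SD, so it is not comparable with the 2.19 points above. With the minimum of 3 positions, the widest tile was chr4:96076001-96078000 (SD 32.5), followed by chr4:94754001-94756000 (30.5), chr4:95610001-95612000 (27.4), chr4:96638001-96640000 (26.2) and chr4:95060001-95062000 (23.5). The first lies directly beside the near-unmethylated tile chr4:96078001-96080000, and the third beside the low run at -37.9 kb from the centre.

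The comparisons between high and low bulls ask whether sperm methylation in the window differs with the label for each trait. A differentially methylated region (DMR) was a tile with q under 0.01 and a difference over 5 points when methylated and unmethylated reads were fitted by logistic regression, with q values set over all tested tiles. For GL, 43 of 619 tested tiles (6.95%) were called, 13 lower and 30 higher in high-GL bulls. Over all tested tiles 8.75% were called, 3.75% lower and 4.99% higher. For SCE 19 of 474 tiles (4.01%) were called against 6.18% of all, for BDE 33 of 554 (5.96%) against 7.57%, and for CCR 50 of 549 (9.11%) against 11.1%. For SCR the count was 29 of 501 (5.79%) against 8.68%. In all 5 comparisons the share in the window was below that of all tested tiles, though for CCR it was above without L06 (9.11% against 8.79%). No test of these shares was made.

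The direction was uneven for CCR, where 39 tiles were lower and 11 higher in the high bulls, as it was over all tested tiles (8.48% lower and 2.58% higher). Without L06, which had the lowest level of all bulls, 22 were lower and 28 higher, where 4.84% and 3.96% of all tested tiles were. Without H06 the counts were 21 and 21 (5.17% and 3.36%), without H08 83 and 8 (14.8% and 2.10%), and without L09 54 and 7 (9.21% and 2.53%). At matched positions, those listed in both groups, 13 were called lower and 0 higher, and over all tested tiles 3.59% were lower and 0.813% higher. For GL there were 7 losses and 32 gains without L05 (3.13% and 4.71% of all tested tiles). Without H03 they were 21 and 24 (4.15% and 4.96%), and without H05 19 and 22 (4.02% and 4.40%). Gains outnumbered losses with each GL bull left out in turn, and least so without H03 or H05. SCE had 10 losses and 9 gains (3.54% and 2.64% of all tested tiles). Without H01, with 684 tiles of the window tested in place of 474, they were 17 and 16 (3.94% and 2.86%), 33 in all. Without H06 they were 6 and 17 (2.38% and 3.83% of all tested tiles), and without L09 16 and 11 (3.804% and 2.37%). BDE had 16 and 17 (2.86% and 4.71%), with 10 and 22 without H02 (2.94% and 4.61%) and 11 and 23 without L02 (2.48% and 5.21%). Without L03 BDE had 14 and 11 (3.03% and 3.90%), and without L08 24 and 22 (3.05% and 4.74%). SCR had 8 losses and 21 gains, whereas over all tested tiles the shares were near equal (4.54% and 4.13%). Without H03 the window had 14 losses and 15 gains (4.88% and 3.99%). With each SCR bull left out in turn, gains outnumbered losses in the window, and least so without H03. The counts were 18 and 34 without H01 (4.76% and 4.62%), 14 and 28 without L01 (5.55% and 3.71%) and 14 and 25 without L03 (4.08% and 4.52%). They were 13 and 23 without H02 (4.51% and 3.96%) and 10 and 23 without L02 (4.203% and 4.57%). At matched positions 0 were called lower and 4 higher (0.631% and 0.537%). H01 lists the fewest positions, and more tiles could be tested without it.

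The logistic test counts every read as independent and takes no account of the spread between bulls. Tests that do, limma on log2 ratios and an F test that scales by overdispersion, called no tile for any trait, neither in the window nor among all tested tiles of the series. For GL, 19 of 619 tiles by the F test and 16 by limma passed 5 points and had a p under 0.05 before adjustment, where 3.47% and 3.59% of all tested tiles did. The same counts were 4 and 11 for SCE (2.46% and 3.3% of all tested tiles) and 19 and 22 for BDE (2.81% and 3.84%). They were 9 and 16 for CCR (2.89% and 3.61%), and 13 and 9 for SCR (2.72% and 3.4%). The lowest Benjamini-Hochberg adjusted p of limma in the window was 0.98 for GL. The counts of called tiles therefore describe these bulls, and no difference in the window exceeded the spread between bulls by these tests after adjustment. With 3 or 4 bulls a group and no call anywhere, these tests cannot set the window apart or show that differences are absent.

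The share of called tiles was highest among intermediate tiles, in the window and in the whole series, a description with no test. For GL, 19 of 75 tested intermediate tiles (25.3%), 23 of 524 high tiles (4.39%) and 1 of 20 low tiles (5%) were called, beside 26.04%, 5.88% and 14.2% of such tiles in the series. The same shares were 20.8%, 1.96% and 5.88% for SCE, 18.8%, 4.28% and 0% for BDE, 25.4%, 6.91% and 5.26% for CCR, and 14.5%, 4.66% and 5.88% for SCR. In the series they ran from 16.4% (SCE) to 31.1% (CCR) for intermediate tiles, from 4.51% to 7.79% for high tiles and from 10.01% to 16.9% for low tiles. For intermediate tiles the window lay above the series for SCE (20.8% against 16.4%) and below it for the other traits. Tiles that touch a low tile had a higher share of calls, in the window and in the series, a description with no test. Of the 31 tested neighbours of low tiles 12 (38.7%) were called in at least 1 comparison, against 120 of 706 other tested tiles that are not low (17.0%). Over the series the shares were 42.3% and 19.3%.

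Because bulls list different positions, each comparison was repeated at matched positions. A matched position is one that both groups list, in 1 bull or more, and the Cochran-Mantel-Haenszel test took each position as a stratum. This test called 10 of 619 tiles for GL (1.62%, beside 2.19% of all tested tiles) and 0 of 473 for SCE (beside 1.31%). It called 10 of 554 for BDE (1.81%, beside 1.6%), 13 of 549 for CCR (2.37%, beside 4.4%) and 4 of 500 for SCR (0.8%, beside 1.17%). Of these, 8 for GL, 6 for BDE, 10 for CCR and 3 for SCR were also called over all positions. For SCE, where no tile was called, the F test and limma also called none. Those tests called no tile of the series for any trait, so they add nothing to the SCE result. Of the 43 GL calls, 21 still differed by over 5 points with the same sign at matched positions, and 4 changed direction. These counts were 11 and 3 of 19 for SCE, 23 and 3 of 33 for BDE, 30 and 5 of 50 for CCR, and 12 and 6 of 29 for SCR. For calls made both ways, kept or reversed, no share over the series is given, so these counts cannot set the window apart. In the GL calls, the median absolute difference was 9.72 points over all positions, and the median matched difference in the direction of the call was 4.76 points.

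**Figure D3:**
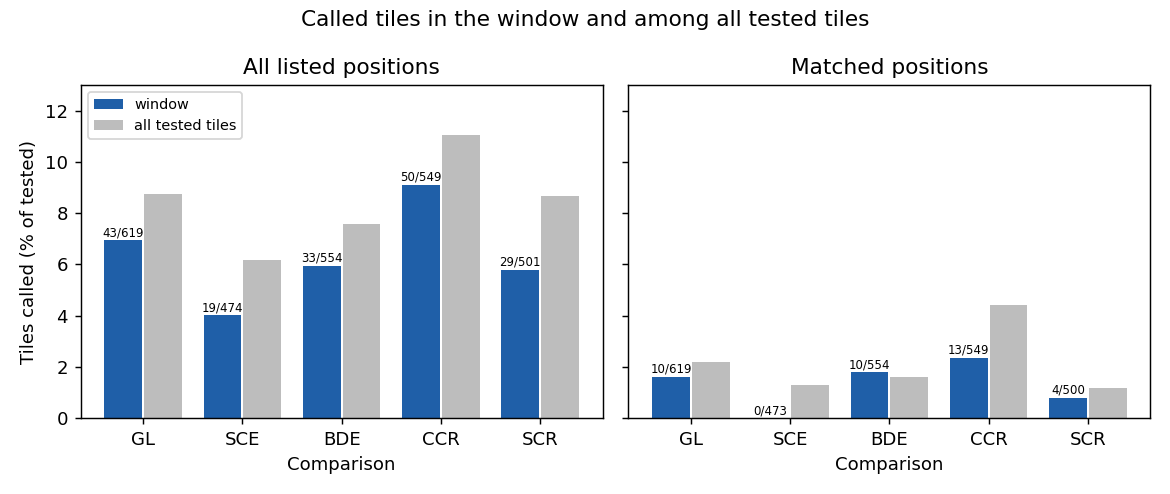
Share of tested tiles called in the window and among all tested tiles in each comparison, with all listed positions (left) and at matched positions (right); the numbers over the bars give called and tested tiles of the window. The window lies below all tested tiles in each pair except BDE at matched positions, where 10 of 554 tiles were called against 1.6%.

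**Figure D4:**
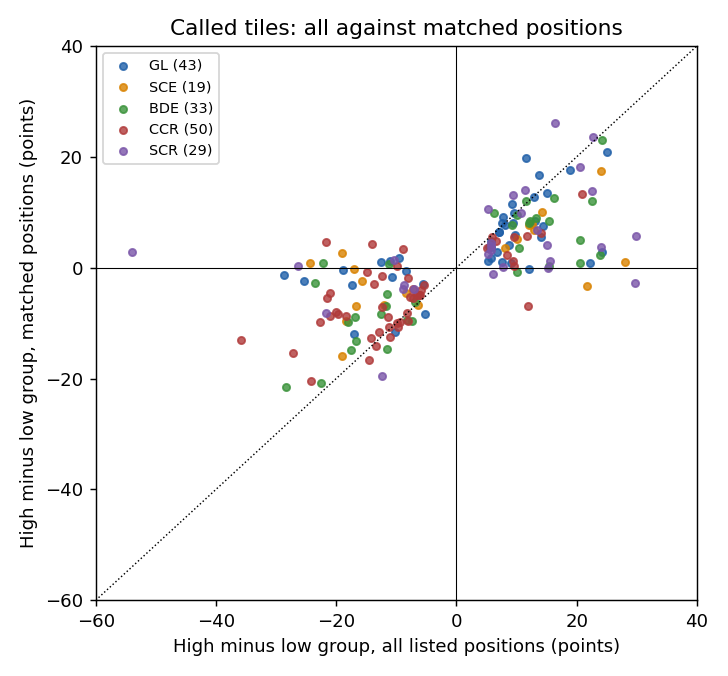
Difference between high and low bulls in percentage points in the called tiles of the 5 comparisons, over all listed positions (horizontal) and at matched positions (vertical), with a dotted line of equality. Many called tiles lie near 0 on the vertical axis, among them the SCR loss of 54.0 points, which was a gain of 2.81 at matched positions.

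The largest GL losses were of this kind. In chr4:94752001-94754000 the high-GL bulls H03, H09, L03 and L05 were at 59.3%, 70.8%, 77.3% and 22.4%, and the low-GL bulls H02, H05, L01 and L07 at 72.3%, 58.3%, 65.5% and 83.1%. Only L05, with 38 listed positions against 5 to 12 in the others, lay below the low-GL bulls. The difference over all reads was -28.6 points (q = 1.42e-15), -1.28 without L05 and -1.38 at 19 matched positions.

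The tile chr4:96076001-96078000, the widest of the window, was called in GL, BDE, CCR and SCR. Its levels ran from 0% in H02 and L08 over a median of 56.8% to 100% in H07, and both GL groups spanned a wide range. The high-GL bulls H03, H09, L03 and L05 were at 37.7%, 19.5%, 63.3% and 19.9%, and H02, H05, L01 and L07 at 0%, 31.8%, 93.1% and 82.6%. L05 lists 55 positions there, H08 48, and H01 and H07 list 2 each. The GL difference was -25.3 points over all reads (q = 3.64e-17) and -2.43 at 26 matched positions, and it ran from -46.1 without H05 to -13.5 without L01, called each time. For SCR it was -54.0 points (q = 1.08e-38) and 2.81 at 7 matched positions, with H01, H02 and H03 at 95%, 0% and 37.7% and L01, L02 and L03 at 93.1%, 96.7% and 63.3%. Accordingly, the SCR groups overlapped despite the largest difference of the window.

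The other GL losses of this size also shrank at matched positions or rested on few positions. In chr4:95610001-95612000 the difference was -18.9 points, and -0.485 at 18 matched positions. Without L05 it was -6.14 and not called, and without H02 it was -30.5 and called. In chr4:95070001-95072000 it was -17.4 points and -3.17 at 29, and without L05 -10.6 and not called, with high-GL bulls from 24.6% to 45.7% and low-GL bulls from 42.6% to 66.9%. In chr4:96004001-96006000, where bulls list between 1 and 10 positions, it was -17.1 points and -11.9 at 9 (q = 0.0476). That call was lost without L03 (-4.82) or H05 (-14.8). Among the gains, chr4:95210001-95212000 separated the groups, with high-GL bulls at 100%, 83.3%, 100% and 86.7% and low-GL bulls at 80%, 65.8%, 50.6% and 81.8%. Its difference was 24.3 points over all reads and 2.84 at 8 matched positions. In chr4:95062001-95064000 the gain was 22.2 points, and 0.81 at 9 matched positions, and without H05 it was 11.3 and not called.

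In 8 of the 43 GL calls the difference was at least as large at matched positions, and 2 of these 8 lay in the longest intermediate stretch, chr4:96368001-96390000. Of its 11 tiles, all tested for GL, 6 were called and all 6 were higher in high-GL bulls, where 8.75% of all tested tiles were called and 4.99% were called higher. Among intermediate tiles, the class of the whole stretch, 25.3% were called in the window and 26.04% in the series. At matched positions the 6 had differences from 12.7 to 20.9 points, and 4 of them were called. The mean of the high-GL bulls was above that of the low-GL bulls in 10 of 11 tiles, the exception being chr4:96380001-96382000 (-0.699 points). The stretch was singled out after its GL values were seen, so it carries no test of its own.

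Within it, chr4:96386001-96388000 had the largest difference. The high-GL bulls H03, H09, L03 and L05 were at 65.4%, 45.5%, 62.7% and 54.8%, and the low-GL bulls H02, H05, L01 and L07 at 29.4%, 36.5%, 24.6% and 44.2%. Every high-GL bull lay above every low-GL bull, with H09 and L07 the closest pair. H09 lists 2 positions there and L05 3, and the other GL bulls between 4 and 19. The difference was 25.1 points over all reads (q = 4.57e-06), 20.9 at 9 matched positions (q = 0.00826), and between 21.9 and 27.2 with any bull left out, the call being kept each time. It was 37.0 points among the 4 GL bulls with listed coverage and 9.83 among the 4 without, as differences of means over bulls. In chr4:96384001-96386000 the difference was 11.6 points over all reads and 19.7 at 20 matched positions (q = 0.00013), but the groups overlapped, with high-GL bulls from 38.2% to 90% and low-GL bulls from 46.2% to 62.2%. This call over all reads was lost without H03 (11.9 points), H09 (10.9), L05 (8.29) or L01 (6.14), so that without H03 or H09 the difference stayed near its size and the call was lost. H09 lists 1 position there. The means over bulls differed by -0.962 points among the 4 GL bulls with listed coverage and by 20.8 among the 4 without. In chr4:96382001-96384000 the difference was 18.9 points over all reads and 17.5 at 20 matched positions (q = 0.000326), and the call was lost without L05 (10.1 points). The groups overlapped, with high-GL bulls from 30% to 77.0% and low-GL bulls from 36.4% to 61.7%. H09, L03 and H02 list 1 position each in this tile. Its means over bulls differed by 19.2 points among the 4 GL bulls with listed coverage and by -4.45 among the 4 without. In chr4:96370001-96372000 the difference was 13.7 points over all reads and 16.7 at 16 matched positions (q = 0.00474), and the call was lost without H03 (12.4 points), L05 (9.43) or L01 (6.61). In chr4:96378001-96380000 it was 15.1 points and 13.5 at 12 (q = 0.0147), and the call was lost without L03 (12.01 points) or L05 (10.6). In chr4:96374001-96376000, the sixth of these calls, it was 12.8 points and 12.7 at 14 (q = 0.0471), and the call was lost without H03, L03, L05, H05, L01 or L07, with differences from 9.57 to 14.2.

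Just before the stretch, chr4:96364001-96366000 was also called in both ways, with a difference of 9.59 points and 9.78 at 33 matched positions. Its high-GL bulls H03, H09, L03 and L05 were at 81.5%, 85%, 86.0% and 85.4%, and its low-GL bulls H02, H05, L01 and L07 at 81.4%, 69.8%, 66.2% and 76.6%. The groups did not overlap, though H03 and H02 were nearly level. The difference was 9.91 points among the 4 GL bulls with listed coverage and 12.03 among the 4 without.

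Over the whole 22 kb the high-GL bulls H03, H09, L03 and L05 were at 60.4%, 53.3%, 58.5% and 65.1%, and the low-GL bulls H02, H05, L01 and L07 at 54.3%, 47.6%, 45.6% and 58.4%. The means were 59.3% ± 4.91 and 51.5% ± 5.92 (SD, n = 4 each), and the groups overlapped. At 156 matched positions the mean difference was 14.6 points, with 125 positions higher and 28 lower in high-GL bulls, but only 1 position is listed in all 8 bulls. These positions share libraries and are not replicates. Of the high-GL bulls, L05 and H03 list 159 and 102 positions in the stretch, and L03 and H09 44 and 30. Of the low-GL bulls, H05 and L01 list 148 and 141, and H02 and L07 73 and 66. For the other comparisons, which share bulls with GL, the mean matched difference was -1.03 points for SCE, 8.41 for BDE, 4.998 for CCR and 11.4 for SCR. Between means over bulls, the difference over the 22 kb was 4.02 points for SCE, 1.12 for BDE, 3.86 for CCR and 1.36 for SCR. The groups overlapped in each of these comparisons. Of the stretch's tiles 0 of 6 tested were called for SCE, 0 of 10 for BDE, 2 of 9 for CCR and 2 of 7 for SCR, beside 6.18%, 7.57%, 11.1% and 8.68% of all tested tiles. Among intermediate tiles of the series, the class of the stretch, the shares were 16.4%, 21.7%, 31.1% and 22.4%. The F test and limma called no tile of the series in any comparison, so they add nothing for SCE and BDE here.

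**Figure D5:**
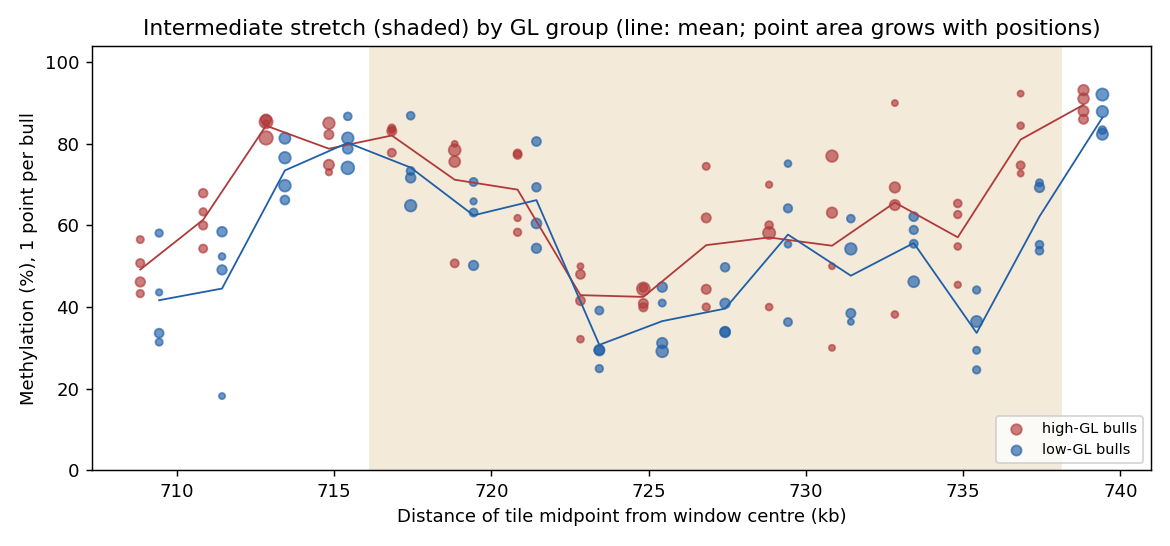
Methylation in percent of the tiles in and beside the 22-kb intermediate stretch (shaded), against the distance in kb from the window centre, with 1 point per GL bull, a line through the group means and a point area that grows with listed positions. The high-GL mean lies above the low-GL mean in 10 of the 11 shaded tiles, and single bulls of both groups overlap in most.

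The remaining GL calls at matched positions lay elsewhere. The tile chr4:95434001-95436000 was called in GL, SCE, BDE and CCR. Its GL difference was 9.24 points over all reads and 11.5 at 83 matched positions (q = 2.52e-09). H05, a low-GL bull, was at 40.8% with 67 positions, and the other GL bulls lay between 67.6% and 94.3%, so that the difference was -5.47 without H05. Of all 18 bulls, only L06 was lower (39.6%). In chr4:96298001-96300000 and chr4:96260001-96262000 the matched differences were -10.4 points (q = 0.00389) and -10.1 points (q = 0.00368). Over all positions they were -3.23 and -5.52 points and not called. The tiles chr4:95772001-95774000 (-8.34) and chr4:96156001-96158000 (6.43) complete the 10.

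Among the other comparisons, SCR had a call inside the 22-kb stretch at chr4:96370001-96372000, a gain of 22.7 points over all reads and 23.6 at 11 matched positions (q = 0.00887), and without H03 it was 16.2 over all reads and not called. H01, H02 and H03 were at 65%, 65.9% and 75.7% there and L01, L02 and L03 at 50.2%, 55.2% and 50.7%, with no overlap. H01 and H02 list 2 positions each there and L02 4, against 18 in H03, 12 in L01 and 7 in L03. The largest BDE gain was in chr4:96258001-96260000, where the high bulls H02, L03 and L08 were at 71.7%, 88.6% and 91.9% and the low bulls H05, H09 and L02 at 60.8%, 29.2% and 50.4%. All high bulls lay above all low bulls, by 24.1 points over all reads (40.2 without H05) and 22.9 at 7 matched positions (q = 0.0015). The largest CCR loss was in chr4:95616001-95618000, beside the low run, with H08, H09 and L06 at 49.6%, 56.1% and 37.2% and H06, L08 and L09 at 75.2%, 95% and 91.7%. It was -35.9 points over all reads and -13.0 at 8 matched positions (q = 0.105), and L08 and L09 list 2 and 1 positions. The largest CCR gain was in chr4:96386001-96388000 (20.9 points, and 13.3 at 7 matched positions, q = 0.182). H08 lists 23 positions there and the other CCR bulls between 2 and 6, and without H08 the gain was 4.71 points and not called, as it was not without L09 (15.2). The largest BDE loss, in chr4:94988001-94990000, was -28.4 points over all reads and -21.6 at 3 matched positions (q = 0.232), so its size changed little while the call was lost. All BDE bulls except H05, with 11 positions, list between 1 and 4 there, and without H05 it was -22.4 and not called. The largest SCE gain was 28.0 points in chr4:96446001-96448000 and 1.11 at 2 matched positions. The largest SCE loss was -24.3 points in chr4:96638001-96640000 and 0.846 at 11, and it was 11.1 without L02. The largest SCR gain was 29.8 points in chr4:95632001-95634000 and 5.70 at 5, and without L02 it was 17.7 and not called.

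Of the 352 tiles tested in all 5 comparisons, 53 were called in 1, 14 in 2, 4 in 3 and 3 in 4. Calls in 3 or more comparisons made up 1.99% of these tiles, beside 3.57% of the 348123 such tiles of the series, and calls in all 5 were 0 beside 0.173%. The 7 tiles with 3 or more calls had levels from 43.7% to 80.9%. In chr4:95004001-95006000, called in 4 comparisons, the differences were -15.7 points for SCE, 20.5 for BDE, -13.7 for CCR and 24.1 for SCR, and between -2.95 and 4.92 at matched positions. The SCE call was lost without L02 (-2.93) or H06 (-11.03) and the CCR call without H06 (-4.94). In chr4:96322001-96324000, called in 3, they were -23.4 for BDE, -21.5 for CCR and -26.3 for SCR, and -2.82, -5.50 and 0.36 at matched positions, and the BDE call was lost without H02 (-4.39). These comparisons have bulls in common, so the calls are not separate observations.

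Groups that do not overlap were found in 21 of 619 tiles for GL (3.39%), where 3.3% of all tested tiles had such groups. For SCE they were 41 of 474 tiles (8.65%) against 9.26%, for BDE 52 of 554 (9.39%) against 10.1%, for CCR 45 of 549 (8.20%) against 9.94%, and for SCR 44 of 501 (8.78%) against 9.13%. Of the 21 GL tiles, 13 were higher in the high-GL bulls and 7 were also called, counts for which no share over the series is given. Over the tiles listed in every GL bull, the mean was 86.6% ± 0.832 in high-GL and 86.0% ± 0.620 in low-GL bulls (SD, n = 4 each), with overlapping ranges of 85.7% to 87.4% and 85.4% to 86.6%.

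At the centre itself little could be compared. The tile with the lead variant, chr4:95650001-95652000, had a median of 96.8% over the 11 bulls that list it, which list a median of 2 positions. H03 and L05 of the high-GL bulls were at 100% and 95.5%, H05, L01 and L07 of the low-GL bulls at 95.8%, 72.3% and 100%, and H09, L03 and H02 list no position there. It was therefore tested in no GL comparison. Its neighbours lay at 98% and 92.9%.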

How the data were processed

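Sperm DNA of 18 bulls was sequenced after bisulfite conversion. Per the labels and methods, the authors trimmed reads with Trim Galore 0.4.0, checked them with FastQC 0.11.2, mapped them to UMD 3.1 with bowtie2 and extracted methylation with Bismark 0.14.5. CpG positions under 10 reads were dropped, both strands were kept apart, and a methylation percent per position was deposited for every bull. A deposited count of reads accompanies it in 6 bulls. In 12 bulls read depth is unknown, so no counting interval is given. The bulls list between 2858992 and 22048556 positions.

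Positions were averaged in tiles of 2000 bp that lie wholly inside the window and outside the stretch left out. With tiles that only overlap the window, 952 would be kept. Each position counted as 10 reads for GL, SCE, BDE and CCR, whereas SCR used the listed counts, a change from the planned use of counts in every bull. Tests were fitted on all tiles in which every bull of the comparison lists a position: a logistic regression (likelihood ratio test, q values by a simplified SLIM method), an F test with overdispersion, limma 3.58.1 (R 4.3.3) on log2 ratios with 1 read added, and a Cochran-Mantel-Haenszel test at matched positions, where every position counted as 10 reads. Differences are high minus low, pooled over the reads counted in this way, except where means over bulls are named. With 1 sample per bull, p-values of the logistic and Cochran-Mantel-Haenszel tests measure reads and not the spread between bulls. Other steps used Python 3.11.15, NumPy 2.4.6 and SciPy 1.17.1, and the tests were run on simulated data. There the Cochran-Mantel-Haenszel test had a single stratum per tile, so its use with each position as a stratum was not simulated.

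Named tiles were the 12 longest or lowest low runs, the 5 largest GL losses and gains, the largest loss and gain of each other trait, tiles called in 3 or more comparisons, up to 8 GL calls at matched positions, the centre tile and the 5 with the largest SD. The 2 remaining GL calls at matched positions, and the intermediate runs, were named after their values were seen. The members, lists and rules were chosen with earlier results of these data known. Genes could not be placed on this build. Alternatives were other thresholds, other read weights, other position minimums, other tests, the number in the bull names as a block and each bull left out in turn.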

Additional observations from a re-analysis of the deposited data

Results flagged for a closer look

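Among 37 GL groups of 4 bulls in the named tiles and over the window, 1 held a bull far from the other 3 by Dixon's test, and chance alone flags about 1 in 20 groups. In chr4:96370001-96372000 of the 22-kb intermediate stretch, L03 was at 50.7% with 7 listed positions, whereas the other high-GL bulls lay between 75.7% and 80%. The gap was 0.851 of the range of the group. The low-GL bulls lay between 50.2% and 70.7%.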

How the results depend on the processing

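The window level kept its value when tiles needed 3 positions or all 18 bulls, and its mean over tiles was 87.4% in place of a median of 93.6%. The 27 low tiles became 10 with a limit of 10% and 16 when all 18 bulls had to list a tile, and 25 when weighted by reads in the 6 bulls with listed coverage, a setting chosen after seeing the data. With other settings, the calls numbered as follows. With a difference over 10 points they were 21 for GL (3.39%), 27 for CCR (4.92%) and 18 for SCR (3.59%). Of all tested tiles 4.90%, 7.09% and 5.64% were called at that setting. With 3 positions per bull they were 22 of 356 tested tiles for GL, 6 of 177 for SCE and 20 of 271 for BDE. For CCR they were 26 of 287 and for SCR 12 of 183. Of all tested tiles 8.77%, 6.63%, 8.15%, 11.4% and 9.33% were called at that setting. With 1 bull per group allowed to lack the tile the calls were 41 of 870 for SCE (6.30% of all tested tiles) and 53 of 873 for SCR (8.76%). With 13 reads per position they were 70 for GL, 29 for SCE and 51 for BDE. With a coverage of at least 15 reads 1 of 16 tested tiles was called for SCR (6.25%, beside 13.8% of all tested tiles). At matched positions they were 10 for GL, 0 for SCE, 10 for BDE, 13 for CCR and 4 for SCR, and by the F test and limma 0 for each trait. Of the 70 fits with a call, the window's share was above that of all tested tiles in 4: BDE at matched positions (1.81% against 1.60%), CCR without L06 (9.11% against 8.79%) and, with the number in the bull name as a block, CCR (14.03% against 13.9%) and SCR (8.58% against 8.53%). With 13 reads per position 12.2%, 10.1% and 11.6% of all tested tiles were called for GL, SCE and BDE. With each bull left out in turn the calls ran from 39 to 58 for GL, from 21 to 33 for SCE, from 25 to 46 for BDE, from 42 to 91 for CCR and from 29 to 52 for SCR. Over all tested tiles the shares ran from 7.84% to 9.12% for GL, from 6.17% to 6.80% for SCE and from 6.93% to 7.79% for BDE. They ran from 8.53% to 16.9% for CCR and from 8.47% to 9.38% for SCR. The tested tiles of the window changed too, to 731 for GL without H09 and 684 for SCE without H01.

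Of 43 differences in named tiles, 5 changed sign at matched positions: 0.846 for SCE in chr4:96638001-96640000, 4.71 for CCR and 2.81 for SCR in chr4:96076001-96078000, -2.75 for SCR in chr4:95210001-95212000 and 0.36 for SCR in chr4:96322001-96324000. Of 292 values with a bull left out, 7 changed sign. The ranges were -14.96 to 11.80 for GL in chr4:95060001-95062000, -5.47 to 17.84 for GL and -4.74 to 21.41 for BDE in chr4:95434001-95436000, -9.60 to 0.60 for GL in chr4:96298001-96300000, -23.41 to 0.12 for SCE in chr4:95070001-95072000 and -58.55 to 11.11 for SCE in chr4:96638001-96640000. In an alternative chosen after seeing the data, only the 4 GL bulls with listed coverage gave -1.75 in chr4:95434001-95436000, 8.79 in chr4:95610001-95612000, 3.93 in chr4:96076001-96078000 and -0.962 in chr4:96384001-96386000, and only the 4 without gave -4.45 in chr4:96382001-96384000. In tiles not called over all positions, the 4 with listed coverage also changed the sign. They gave 25.5 in chr4:95060001-95062000, 3.71 in chr4:96260001-96262000 and 4.06 in chr4:96298001-96300000, against -2.93, -5.52 and -3.23 over all reads. All these values from 4 bulls are differences of means over bulls, a different measure from the pooled differences over all reads. In chr4:95060001-95062000 the means over all GL bulls were 37.4% (high) and 31.2% (low), so there the sign already differed between the measures. In chr4:96260001-96262000 they were 86.6% and 92.4%, and in chr4:96298001-96300000 65.5% and 68.5%. The cause was not tested. The numbers in the bull names recur between the high and low groups in full for CCR and SCR, with 1 shared number for GL and BDE and 0 for SCE. With the number as a replicate block, an alternative chosen after seeing the data, the calls were 77 for CCR (66 losses and 11 gains, and 11.4% and 2.47% of all tested tiles) and 43 for SCR (19 and 24, and 4.90% and 3.63%). Deviations of same-numbered bulls from their group means had correlations across tiles from -0.094 to -0.0338 for CCR and from -0.0201 to 0.0171 for SCR, and 0 of 6 and 2 of 6 bulls correlated best with their own number. The labels name no shared source, so the bulls share only a number.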
